A study of Mus musculus with 6 samples.

Results

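The contractile apparatus of mouse embryonic fibroblasts (MEF cells) was followed through 42 genes, chosen by symbol from the 55335 gene identifiers of the count table. They code for the muscle-type actins, the chains of myosin II, tropomyosins, calponins and the stress fibre proteins that serum response factor (SRF) is known to control. Parental wild-type MEF cells (Ctrl, 3 libraries) were compared with MEF cells of the same genotype that had passed through the 3 μm pores of a transwell membrane and were collected after 15 h (Confine, 3 deposited libraries), to look for regulators of migration under confinement. The sources used here do not say whether the libraries came from separate cultures or whether the Ctrl cells had been kept on a membrane. The p-values therefore measure only the spread between these libraries, which may be technical.

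Contraction in a fibroblast is driven by non-muscle myosin II, which slides along actin filaments once its regulatory light chain has been phosphorylated by enzymes such as myosin light chain kinase. Tropomyosins, caldesmon and calponins coat the filaments and decide which of them myosin can use. When a fibroblast becomes a myofibroblast, as in a healing wound, it adds smooth muscle actin and other muscle-type isoforms to its stress fibres, and much of this programme is transcribed by SRF with its actin-sensing cofactors (the MRTF proteins) or with myocardin.

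In the deposited table, Confine replicates 1 and 2 hold the same count for every identifier and were counted as 1 library, named Confine replicate 2 here, so that 2 Confine libraries remained. Total counts ran from 22287210 to 27853805 in Ctrl and were 32537550 and 27290138 in Confine. Counts were scaled by edgeR's TMM method, which brings most genes of the libraries to a common level, and are given as normalized CPM, the usual rate of counts relative to the scaled library total, and 3 counts correspond to between 0.101 and 0.128 normalized CPM, with counting error only in view. Of the markers of other cell types, no epithelial marker reached the test, and the summed endothelial, skeletal muscle and cardiac muscle lists were each at 12.1 normalized CPM or less in every library. Vascular smooth muscle and pericyte markers summed to between 211 and 229 normalized CPM in Ctrl and to 430 and 438 in Confine. Nearly all of this was Cspg4, at 212, 227 and 209 in Ctrl and 433 and 422 in Confine. Leukocyte markers summed to between 7.61 and 8.50 normalized CPM in Ctrl and to 18.5 and 25.9 in Confine, with Tyrobp, Cd3e and Adgre1 at 0 counts. Of that list Cd68 and Csf1r rose by 2.67 and 1.45 on the log2 scale and Lyz2 fell by 2.64, and Vwf rose among endothelial markers with Emcn and Tie1 at 0 counts. Fibroblast markers were high, but Thy1, Dcn and Lum had at most 27 counts in any library. The summed level of the 14 fibroblast markers was 9530 to 10600 normalized CPM in Ctrl and 17200 to 18200 in Confine. Of the 11 tested, 8 were higher in Confine at an adjusted p under 0.05, against 12.8% of all tested genes. With counts scaled by library size only, 6 were higher and 1 was lower. The 6 proliferation markers all fell, from a sum of 1320 to 1500 in Ctrl to 522 and 623 in Confine. Of all tested genes, 10.2% were lower. Fewer cells of a type and less RNA per cell cannot be told apart in such libraries, and the part of these differences in the values below was not tested.

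SRF binds the CArG box, and the strict form of that element was searched in the promoter windows of RefSeq (GRCm38.p6), which reach from 250 bases before to 50 bases after a gene's start. The pattern reads the same on both strands. A window was given for 35 of the 42 genes, and Actg2, Csrp2, Myh11, Myocd, Synpo and Tagln were among those without one. A box was present in 8 of these 35 genes (22.9%), against 1.81% of all 27025 genes with a window, and the set had been named in part for control by SRF. Acta2, Cnn1, Des and Lmod1 were among the genes whose windows held no strict match. Looser forms of the element and other positions were not searched, so a gene without a match may still carry one. The boxes are shown because they mark which of the genes carry the strict form in these windows. Each is given with its flanks, 5′ to 3′ on the strand of the gene, with the box in capitals.
Myl9 (chr2:156775293-156775322, plus strand): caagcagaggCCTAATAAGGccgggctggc
Acta1 (chr8:123894829-123894858, minus strand): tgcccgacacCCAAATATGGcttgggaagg
Actc1 (chr2:114052903-114052932, minus strand): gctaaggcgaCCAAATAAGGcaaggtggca
Cnn2 (chr10:79988534-79988563, plus strand): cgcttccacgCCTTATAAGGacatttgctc
Myl6 (chr10:128493040-128493069, minus strand): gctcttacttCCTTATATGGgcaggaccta
Fhl1 (chrX:56779571-56779600, plus strand): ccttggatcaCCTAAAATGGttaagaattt
Fhl2, first start (chr1:43196838-43196867, minus strand): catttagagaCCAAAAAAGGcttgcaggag
Fhl2, second start (chr1:43163973-43164002, minus strand): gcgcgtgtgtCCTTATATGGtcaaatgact
Srf (chr17:46556205-46556254, minus strand): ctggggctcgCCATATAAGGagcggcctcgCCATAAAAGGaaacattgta
All boxes lay before the start of the gene, from 161 bases before it in Myl9 to 31 bases before the second start of Fhl2. Srf itself, the gene of the factor, held a pair of boxes that began 82 and 62 bases before its start. A match is a description of the letters and not of binding.

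Levels per exon length were compared in normalized RPKM, normalized CPM per kilobase of merged exons, with means ± SD over 3 Ctrl and 2 Confine libraries. Acta2, smooth muscle α-actin and the usual marker of myofibroblasts, was the most abundant of the 42 genes in both groups, at 1020 ± 287 in Ctrl and 679 ± 53.9 in Confine. Tagln2, Tpm4, Myl6 and Cnn2 followed in Ctrl, and these neighbours, from 339 ± 39.4 for Tagln2 to 270 ± 54.5 for Cnn2, lay closer to each other than their SDs. The muscle-restricted end of the list was almost silent. Myh11, the smooth muscle myosin heavy chain, had 6, 3 and 6 counts in Ctrl and 7 and 17 in Confine. Tagln, also known as SM22 and a standard marker of smooth muscle, had 8, 7 and 2 counts in Ctrl and 1 and 4 in Confine, and it overlaps Pcsk7 on the opposite strand. The strand setting of the counting is not given in the sources used here, so reads could have been assigned to the wrong one of these genes or left out, and the counts of Tagln are uncertain. Actc1, the cardiac α-actin, Pdlim3, a Z-disc protein of muscle, and Myocd, the SRF cofactor of smooth muscle, had 0 counts in all libraries, which allows up to 0.128 normalized CPM in the shallowest of them. These 5 genes did not pass edgeR's filter on low counts and were not tested. In both groups, an abundant smooth muscle actin thus stood beside Myh11 and Myocd at or near 0, with the low counts of Tagln left uncertain. Other genes of smooth muscle were measured in Ctrl at means of 48.6 (Smtn), 18.1 (Lmod1), 15.0 (Cnn1) and 13.1 (Actg2) normalized CPM.

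**Figure D1:**
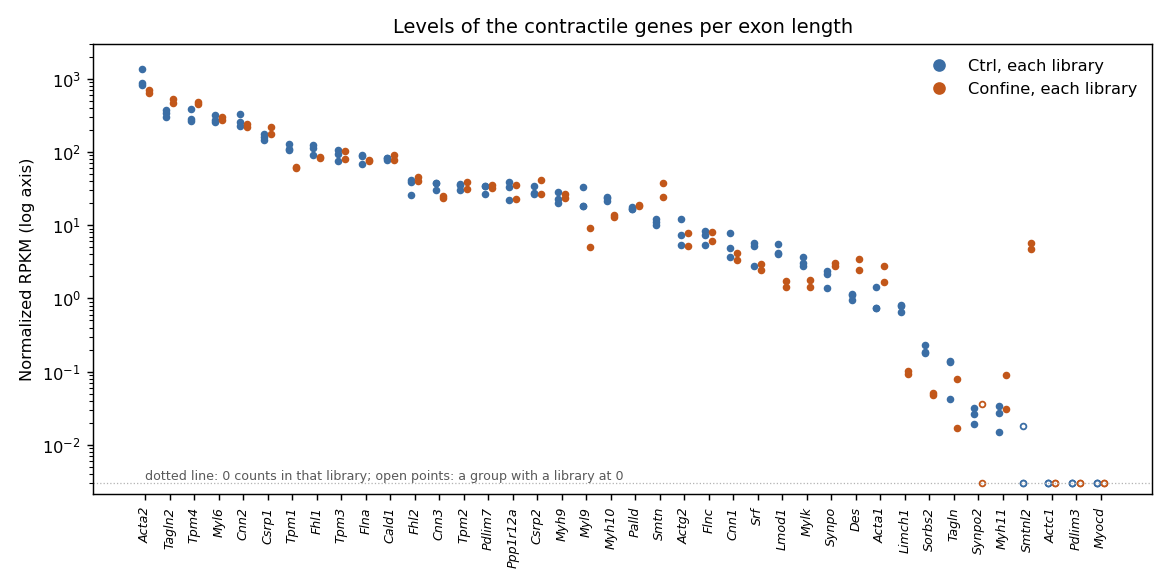
Level of 40 of the 42 contractile genes in every library, in normalized RPKM on a log axis, ordered by the Ctrl mean. Blue points are the 3 Ctrl libraries and orange points the 2 Confine libraries, points on the dotted line had 0 counts, and Acta2 stands first in both groups while Smtnl2 is near the bottom in Ctrl and at 5.23 on average in Confine.

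The remaining 37 genes were tested with edgeR's quasi-likelihood test across all 15881 tested genes, and a gene was called changed at an adjusted p under 0.05. In total, 14 of the 37 (37.8%) passed, where 23.0% of all tested genes passed. Of these, 6 were higher in Confine (Smtnl2, Smtn, Des, Acta1, Tpm4 and Tagln2) and 8 were lower (Limch1, Sorbs2, Myl9, Lmod1, Mylk, Tpm1, Myh10 and Cnn3), with 12.8% of all tested genes higher and 10.2% lower. With the cutoff of 1.5 on the absolute log2 fold change added, 5 of the 37 passed (13.5%), against 8.00% of all tested genes, with Smtnl2 higher (4.89% of all) and Limch1, Sorbs2, Myl9 and Lmod1 lower (3.11% of all). The median log2 fold change of the 37 genes was 0.03, and that of all tested genes was -0.00207. Without Confine replicate 2, 8 of the members passed. Beyond the cutoff the split was 3 higher and 2 lower without Ctrl replicate 1, where Myl9 and Lmod1 were both at -1.38, 2 higher and 2 lower without Confine replicate 3, and 3 higher and 4 lower without Confine replicate 2. The set thus moved in both directions, and its middle stayed near that of all genes.

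Scaling altered this split. When the counts were scaled by library size only, the median of all tested genes shifted to -0.21, and 15 members passed, of which 20.0% were higher in place of 42.9%, while among all passing genes the share that was higher was 34.0% in place of 55.7%. Acta1, Tagln2 and Tpm4 did not pass under that scaling. Normalized CPM of the 2 groups did not overlap for 20 of the 37 members (54.1%), against 49.5% of all tested genes, and the 20 included all 14 that passed. Ctrl replicate 1 was the highest of the Ctrl libraries for 21 of the 37 members, whereas it was the highest for 27.9% of all tested genes.

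**Figure D2:**
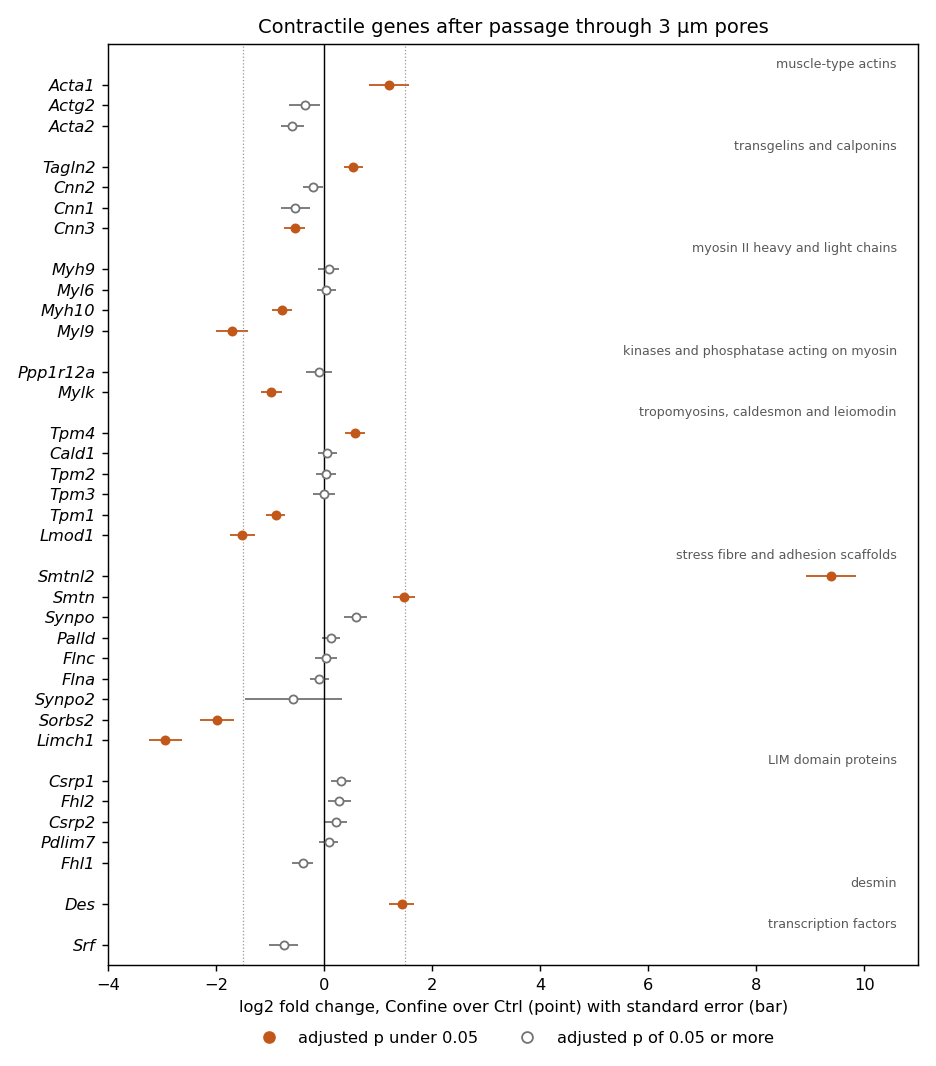
Log2 fold change of Confine over Ctrl for 35 of the 37 tested genes, grouped by role, with the standard error as a bar and dotted lines at 1.5 in either direction. Filled points are the 14 genes with an adjusted p under 0.05, and they lie on both sides of 0, from -2.94 for Limch1 to 9.38 for Smtnl2.

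Among the muscle-type actins, 1 of 3 tested genes passed, where 23.0% of all tested genes passed. The counts of each role below are to be read beside that share. Acta1, the α-actin of skeletal muscle (chr8:123891769-123894751, minus strand, GRCm38), was at 2.18, 1.13 and 1.15 normalized CPM in Ctrl and at 4.26 and 2.54 in Confine. The groups did not overlap, and the nearest pair was Ctrl replicate 1 and Confine replicate 3. It rose by 1.19 ± 0.37 (SE) on the log2 scale (edgeR adjusted p = 0.0279), from a low level, with 126 and 64 counts behind the Confine values. The call was lost without Ctrl replicate 2, Ctrl replicate 3 or Confine replicate 2, and in the last case the log2 fold change was 0.77 with an adjusted p of 0.341.

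Acta2 was at 2970, 1910 and 1840 normalized CPM in Ctrl and at 1570 and 1410 in Confine. All Confine values were below all Ctrl values, but Ctrl replicate 1 stood well above the other Ctrl libraries. Its log2 fold change of -0.59 ± 0.21 missed the threshold (edgeR adjusted p = 0.0557), without Ctrl replicate 1 it was -0.34 with an adjusted p of 0.33, and it passed in 8 of the 14 alternatives run. Actg2, the γ-actin of enteric smooth muscle, had a log2 fold change of -0.36 ± 0.29 (edgeR adjusted p = 0.417), and its groups overlapped.

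Actin genes are related in sequence, so the start of each coding sequence below (GENCODE M21) is shown to let a reader see how far they can be told apart. Capitals mark bases that differ from the aligned base of Acta2. Gaps of the alignment are not drawn, so the lines of Actg2 and Actb, which lack bases of Acta2, do not stand under it column by column.
Acta2: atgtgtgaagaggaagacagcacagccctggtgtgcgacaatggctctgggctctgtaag
Acta1: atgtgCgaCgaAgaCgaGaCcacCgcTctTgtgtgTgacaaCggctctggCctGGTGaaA
Actg2: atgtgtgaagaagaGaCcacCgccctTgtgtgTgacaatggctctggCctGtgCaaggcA
Actc1: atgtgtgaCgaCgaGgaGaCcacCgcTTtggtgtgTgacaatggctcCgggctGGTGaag
Actb: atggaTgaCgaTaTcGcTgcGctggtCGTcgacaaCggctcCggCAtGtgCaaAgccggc
Over the whole coding sequence Acta1 was 85.4% identical to Acta2 and Actg2 was 84.2% identical, and the longest identical stretch with either was 29 bases. Actb, the cytoplasmic β-actin, was 82.8% identical with a longest stretch of 47 bases. No actin gene of the set shared a stretch of 100 bases at 95% identity with another transcript.

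Of the transgelins and calponins, actin-binding proteins of one family, 1 of 4 tested genes rose and 1 fell. Tagln2, the transgelin of non-muscle cells, had a mean of 706 ± 81.9 normalized CPM in Ctrl and 1030 ± 86.1 in Confine, a 1.45-fold rise (log2 fold change 0.54 ± 0.18, edgeR adjusted p = 0.0364). Cnn3, the acidic calponin, fell by 0.55 ± 0.19 on the log2 scale from 107 ± 13.7 to 73.4 ± 2.61 normalized CPM (edgeR adjusted p = 0.0411). Both calls were close to the threshold. That of Tagln2 was lost without any single library other than Ctrl replicate 1 and that of Cnn3 without Ctrl replicate 1, Confine replicate 2 or Confine replicate 3. Cnn1, the calponin that marks smooth muscle, and Cnn2, the most abundant calponin, did not pass, with log2 fold changes of -0.54 and -0.21.

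Of the 4 tested chains of myosin II, 2 fell, where 10.2% of all tested genes were lower. Myl9, a regulatory light chain of smooth muscle and non-muscle myosin (chr2:156775420-156781658, plus strand), was at 38.2, 21.3 and 21.2 normalized CPM in Ctrl and at 10.5 and 5.88 in Confine. The groups did not overlap, and the highest value was again that of Ctrl replicate 1. Myl9 fell by 1.71 ± 0.29 on the log2 scale, or 3.28-fold (edgeR adjusted p = 0.000249), and without Ctrl replicate 1 the log2 fold change was -1.38 with an adjusted p of 0.000441. Myh10, the heavy chain of non-muscle myosin IIB, fell 1.72-fold (log2 fold change -0.78 ± 0.18, edgeR adjusted p = 0.00336). Its mean was 242 ± 17.5 normalized CPM in Ctrl and 140 ± 5.59 in Confine, and without Confine replicate 2 the adjusted p was 0.055. Myh9, the heavy chain of non-muscle myosin IIA, and Myl6, the essential light chain, had overlapping groups and log2 fold changes of 0.08 ± 0.19 and 0.04 ± 0.18.

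Of the 4 tested genes that act on the myosin light chain, 1 fell, Mylk, and 3 did not pass. This gene, which codes for myosin light chain kinase, had a mean of 35.6 ± 5.22 normalized CPM in Ctrl and 18.1 ± 2.47 in Confine and fell by 0.98 ± 0.20 on the log2 scale (edgeR adjusted p = 0.00141), a call that was lost without Confine replicate 2 (adjusted p = 0.0606). Ppp1r12a, the targeting subunit of myosin phosphatase, had a log2 fold change of -0.10 and did not pass. It was the most abundant of these genes per exon length, at 31.3 ± 8.54 normalized RPKM in Ctrl and 29.3 ± 9.17 in Confine.

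Tropomyosins, caldesmon and leiomodin occupy the actin filament itself, and 1 of these 6 genes rose while 2 fell. Tpm1 fell by 0.90 ± 0.18 on the log2 scale, from 748 ± 75.0 to 401 ± 12.0 normalized CPM (edgeR adjusted p = 0.0012). Tpm4 rose by 0.57 ± 0.19, from 688 ± 137 to 1020 ± 38.3 normalized CPM (edgeR adjusted p = 0.0381), and this call was lost without any single library other than Ctrl replicate 1. Tpm2, Tpm3 and Cald1, which codes for caldesmon, had log2 fold changes between -0.01 and 0.06 and did not pass. Transcripts of Tpm3 share an identical stretch of 2108 bases with Tpm3-rs7, so that reads between them could have been split. Lmod1, leiomodin 1, which nucleates actin filaments in smooth muscle (chr1:135324807-135368065, plus strand), was at 21.7, 15.8 and 16.7 normalized CPM in Ctrl and at 6.82 and 5.72 in Confine. The lowest Ctrl library was above both Confine libraries by more than the range within either group. Lmod1 fell by 1.52 ± 0.23 on the log2 scale, or 2.88-fold (edgeR adjusted p = 7.6e-05).

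**Figure D3:**
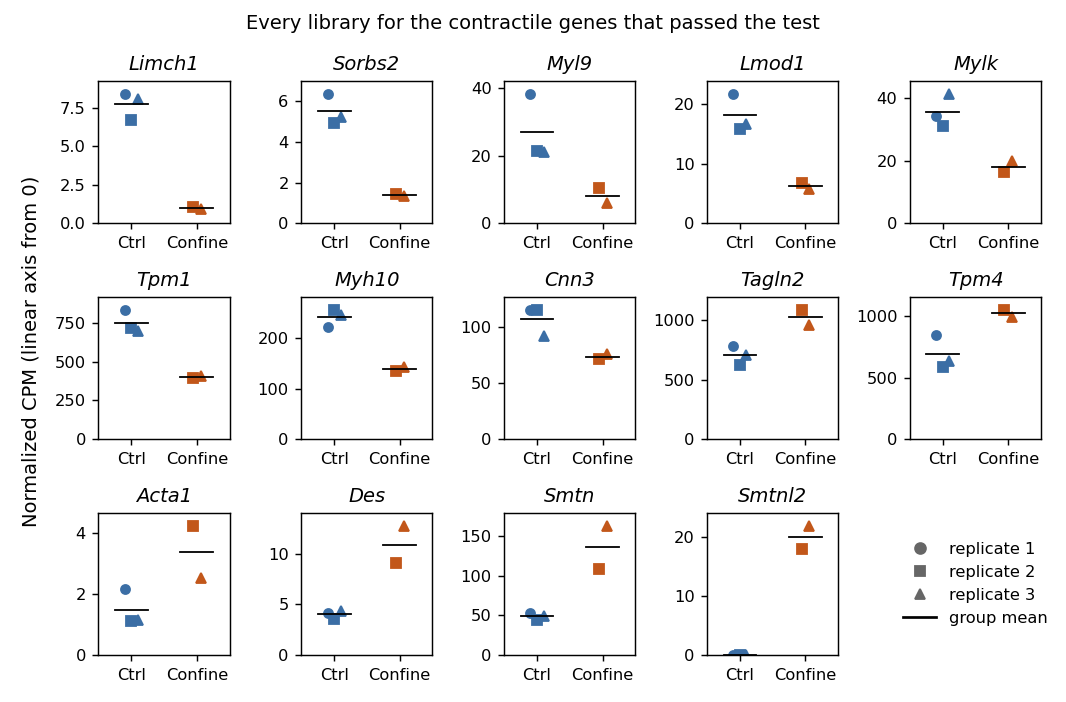
Normalized CPM in every library for the 14 genes that passed, each on its own linear axis from 0, with symbols for the replicate number and a bar at the group mean. In every panel the Ctrl and Confine libraries do not overlap, and Ctrl replicate 1 stands apart from the other Ctrl libraries in Myl9, Acta1 and Tpm4.

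Stress fibre and adhesion scaffolds held the largest changes of the set in both directions. Smtnl2, smoothelin-like 2, a relative of the smooth muscle protein smoothelin (chr11:72389164-72411713, minus strand), had 2, 0 and 0 counts in Ctrl and 533 and 552 in Confine. In normalized CPM these were 0.0691, 0 and 0 against 18.0 and 21.9, so that the gene was at or under the floor of 3 counts in all Ctrl libraries and far above it in both Confine libraries. Summed over the libraries and scaled by the TMM-scaled library totals, the ratio was 781, with an exact 95% interval of 216 to 6460 that covers counting error only. Smtnl2 passed the filter on low counts only through the Confine libraries, so its call is a description. The fitted log2 fold change of 9.38 depends on the count that edgeR adds to zeros and was 12.03 without Ctrl replicate 1. Smtnl2 thereby went from the last of the 39 members with any count to rank 26 of the 42 per exon length.

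Some transcripts annotated to Smtnl2 share stretches of 120 to 168 bases at 95% identity or more with 15 other genes, so its counts could hold reads of those genes. The longest stretch was shared with Ero1l, an endoplasmic reticulum oxidase, which had 360, 397 and 248 counts in Ctrl and 8169 and 11283 in Confine. Counts of Smtnl2 were 0.556%, 0% and 0% of those of Ero1l in Ctrl and 6.52% and 4.89% in Confine. The part of shared reads in the Smtnl2 counts was not tested.

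Smtn, smoothelin itself (chr11:3517523-3540612, minus strand), was at 52.9, 44.2 and 48.8 normalized CPM in Ctrl and at 108 and 163 in Confine. Both Confine libraries lay above the highest Ctrl library by more than the range within Ctrl, and Confine replicate 3 was the higher. Smtn rose by 1.48 ± 0.20 on the log2 scale, or 2.79-fold (edgeR adjusted p = 2.1e-05). Smtnl2, the related gene of the set, was also higher as counted, with the limits given above.

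Sorbs2, an adaptor of stress fibres and adhesions that is also known as ArgBP2 (chr8:45507788-45827906, plus strand), was at 6.36, 4.95 and 5.23 normalized CPM in Ctrl and at 1.42 and 1.35 in Confine. It fell by 1.99 ± 0.31 on the log2 scale, or 3.97-fold (edgeR adjusted p = 9.34e-05). Limch1, which binds non-muscle myosin IIA and activates it (chr5:66745827-67057158, plus strand), was at 8.39, 6.69 and 8.08 normalized CPM in Ctrl and at 1.05 and 0.953 in Confine. Both genes were low but separated clearly, and the Confine libraries held 31 and 24 counts of Limch1. Limch1 fell by 2.94 ± 0.31 on the log2 scale, or 7.68-fold (edgeR adjusted p = 1.26e-06), the largest fall of the 37 genes. Some of its transcripts share stretches of 100 to 114 bases with 82 other genes, and its counts are uncertain to that extent. The other scaffolds did not pass: Synpo (0.58), Palld (0.13), Flnc (0.03), Flna (-0.09) and Synpo2 (-0.57), on the log2 scale. Flna, filamin A, which crosslinks actin, was the most abundant scaffold per exon length, at 82.4 ± 11.9 normalized RPKM in Ctrl and 77.1 ± 1.84 in Confine.

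Desmin, the intermediate filament protein of muscle cells, was also higher in Confine. Des (chr1:75360329-75368579, plus strand) was at 4.18, 3.59 and 4.34 normalized CPM in Ctrl and at 9.05 and 12.8 in Confine, without overlap. It rose by 1.43 ± 0.24 on the log2 scale, or 2.70-fold (edgeR adjusted p = 0.000259). Of the 5 tested LIM domain proteins, Csrp1, Csrp2, Fhl1, Fhl2 and Pdlim7, 0 passed in the edgeR fit set out above and 0 with DESeq2. Only Fhl1 had an unadjusted p under 0.05 in that edgeR fit. Fhl1 passed with library size alone (edgeR adjusted p = 0.0204) and with the identical columns as 2 samples (adjusted p = 0.0377). Their log2 fold changes ran from -0.40 for Fhl1 to 0.31 for Csrp1. Csrp1 was the most abundant of them, at 161 ± 15.1 normalized RPKM in Ctrl and 199 ± 28.4 in Confine. Fhl2 overlaps Gm8210 on the opposite strand, which had more counts, and the sources used here do not say whether counting used the strand.

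Srf was at 16.7, 8.09 and 15.0 normalized CPM in Ctrl and at 7.16 and 8.66 in Confine. The groups overlapped, since Ctrl replicate 2 lay between the Confine libraries. Its log2 fold change was -0.75 ± 0.27 (edgeR adjusted p = 0.0584), the lowest fold change of the 23 members that did not pass, and without Ctrl replicate 2 it was -1.01 with an adjusted p of 0.00247, whereas without Ctrl replicate 1 it was -0.55 with an adjusted p of 0.227. Over those 23 members the log2 fold change ran from -0.75 to 0.58, and for 16 of them it was within 0.4 of 0. Of the 8 genes with a CArG box shown above, Acta1 rose and Myl9 fell, Srf, Cnn2, Myl6, Fhl1 and Fhl2 did not pass, and Actc1 was not tested.

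Isoform shares, which need no scaling between libraries, were computed within families from counts per exon length. Exons were merged over all transcripts of a gene, so the size of a share depends on that length. With 3 against 2 libraries the exact permutation test cannot give a p under 0.1, so none of the 13 shares could pass, and the adjusted value for a p of 0.1 was 0.26. The groups did not overlap for 9 of the 13 shares. Tpm4 made up 59.7%, 54.6% and 53.9% of the tropomyosin counts per exon length in Ctrl and 71.0% and 71.1% in Confine. Tpm1 made up 20.0%, 22.7% and 20.1% in Ctrl and 9.05% and 9.97% in Confine. For both tropomyosins the groups did not overlap, with differences of 15.0 and -11.4 percentage points (two-sided exact permutation test, p = 0.1 each). Tpm2 and Tpm3 overlapped between the groups (exact permutation p = 0.6 and 0.5). The tropomyosin pool of the Confine libraries thus held more Tpm4, a tropomyosin gene of non-muscle cells, and less Tpm1 than that of any Ctrl library.

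Within the myosin II heavy chains, Myh10 made up 47.9%, 46.0% and 54.1% in Ctrl and 35.3% and 33.9% in Confine, with Myh9 as nearly all of the remainder. Myl9 made up 16.9%, 10.4% and 10.8% of the regulatory light chains Myl9, Myl12a and Myl12b in Ctrl and 4.78% and 2.98% in Confine. Neither share overlapped between the groups, and the differences were -14.7 and -8.81 percentage points (exact permutation p = 0.1 each). A single other gene held nearly all of the remainder of the regulatory light chains. Myl12b stands under separate identifiers, and reads shared between them could have been left out, so the percentages of Myl9 are uncertain. Muscle-type actins were 9.02% ± 2.60 of all actin counts per exon length in Ctrl and 6.22% ± 0.0522 in Confine (exact permutation p = 0.2), nearly all of it Acta2. Acta1 was 0.0921% ± 0.0104 of the muscle-type actins in Ctrl and 0.318% ± 0.0887 in Confine (exact permutation p = 0.1), so that its rise added little to the actin pool. Cnn2 was 86.7% ± 2.08 of the calponins in Ctrl and 89.3% ± 1.20 in Confine (exact permutation p = 0.3), and Csrp1 was 84.4% ± 2.29 and 85.5% ± 2.30 of Csrp1 and Csrp2 together (p = 0.6).

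**Figure D4:**
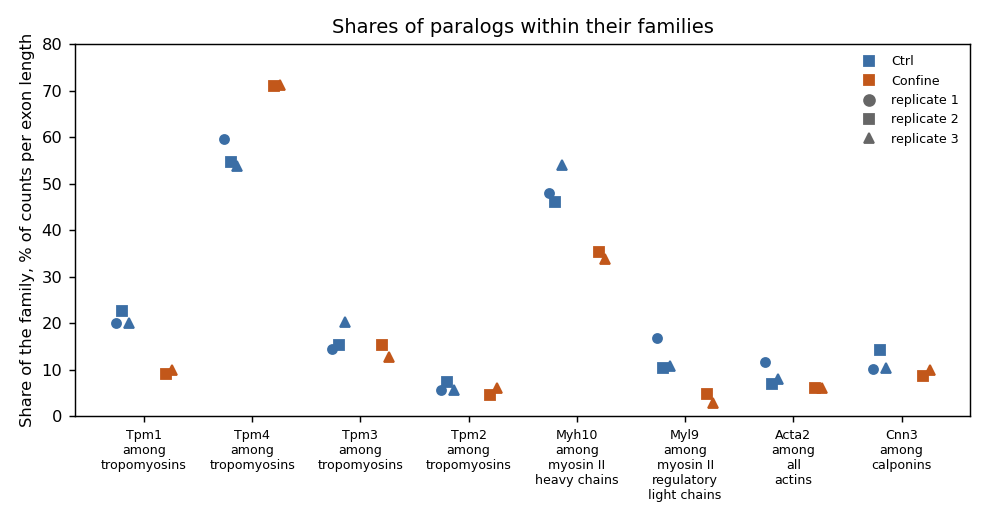
Share of 8 genes within their families in each library, as a percentage of counts per exon length on a linear axis from 0. Blue marks Ctrl, orange marks Confine and the symbol gives the replicate number. Tpm4 takes a higher share in Confine, Tpm1, Myh10, Myl9, Acta2 and Cnn3 take lower shares without overlap, and Tpm2 and Tpm3 overlap.

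The wider pathway was read from lists of genes outside the set. As set out above, 23.0% of all tested genes passed. Of 28 tested identifiers of other myosin II regulators, 5 rose and 3 fell, and 5 in all passed without Confine replicate 3. Of 9 tested SRF cofactors and their regulators, Phactr4, which binds monomeric actin, rose (log2 fold change 1.30, edgeR adjusted p = 5.46e-05), with 2 passing without Ctrl replicate 3. Of 29 other targets of SRF and MRTF, 2 rose and 3 fell, with Tes, testin (1.75, adjusted p = 1.35e-06), Itga1, an integrin chain (-2.43, adjusted p = 1.5e-06), and Ccn2, a matricellular protein (2.24, adjusted p = 2.64e-06) as the genes of smallest adjusted p. The median log2 fold changes of these lists were 0.09, 0.15 and 0.04.

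Myofibroblast markers outside the contractile apparatus were counted in the same way. Of 18 tested, 8 rose and 2 fell (6 in all passed without Ctrl replicate 3 and 5 without Confine replicate 3), against 12.8% and 10.2% of all tested genes, with a median log2 fold change of 0.37, and their summed level was 6080 to 7270 normalized CPM in Ctrl and 11200 and 11500 in Confine. Col3a1, a collagen chain, rose by 2.21 on the log2 scale (edgeR adjusted p = 5.78e-08), Lox, which crosslinks collagen, by 1.76 (adjusted p = 1.24e-06) and Fn1, fibronectin, by 1.04 (adjusted p = 0.000309). Those that fell, named after their values were seen, were Postn, periostin (-0.96, adjusted p = 0.00557), and Tgfb2, a growth factor (-0.58, adjusted p = 0.0492). With library size alone, 5 of the list were higher and 4 were lower. In the same libraries Acta2, the contractile marker of the myofibroblast, did not pass, and its log2 fold change was -0.59. Whether the lists differ from each other was not tested. The myofibroblast list shares Col1a1, Col1a2, Col3a1, Col5a1, Fn1 and Pdgfrb with the fibroblast markers, so these lists do not give separate results. Of the shared genes, Col1a1, Col3a1, Col5a1 and Fn1 rose, and Col1a2 and Pdgfrb did not pass. Among vascular smooth muscle and pericyte markers, 5 of 10 could be tested. Notch3 (3.37) and Cspg4 (0.98) rose and Rgs5 (-2.57) fell on the log2 scale, while Kcnj8, Abcc9 and Myocd had 0 counts in all libraries. Rgs5 was near the floor, with 14, 18 and 21 counts in Ctrl and 2 and 4 in Confine (edgeR adjusted p = 0.0165). Of the cardiac list only Tnnt2, troponin T, was tested, and it rose by 1.42, with 0 of the list passing without Confine replicate 3. Of the skeletal list Tnnt3 (0.92) and Ttn (0.30) were tested and did not pass, and Myod1, Myf5 and Pax7 had 0 counts in all libraries.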

How the data were processed

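Per the labels, polyadenylated RNA of each sample was made into libraries that keep the strand by dUTP. The submitters' processing notes name Trim Galore 0.6.10, HISAT2 2.1.0, SAMtools 1.5, featureCounts and the build mm10. The annotation and the strand setting are not given in the sources used here. The authors deposited raw counts per gene, in 6 columns. The 42 genes and all lists were chosen with earlier results of these data known.

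Of the 55335 identifiers, 54587 were found in GENCODE M21 (GRCm38) in the same version and 55154 in any version, and this annotation gave symbols, positions and exon lengths. The identical Confine columns were counted once. Genes kept by filterByExpr (15881) were scaled by TMM (factors 1.04, 1.08 and 1.06 in Ctrl, 0.91 and 0.924 in Confine) and passed to edgeR's quasi-likelihood fit (edgeR 4.0.16, R 4.3.3), with the group as the only term and Benjamini-Hochberg adjustment. Residual degrees of freedom were 3 and the median of the prior ones was 14.8. Because reads were not counted by molecular identifier, intervals and floors hold for counting error alone.

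Alternatives were DESeq2 1.42.0, other scalings and filters, the repeated column as a sample of its own, a replicate block, leaving out each library and, for shares, counts without length. Members that passed were named, with values per library where the absolute log2 fold change exceeded 1, as were untested members, the most abundant member of each role, and up to 3 genes of each other list by adjusted p. Ero1l, Gm8210, Pcsk7 and Tpm3-rs7 were named for sequence or positions shared with members. Results of 2 members and of the genes of the list of other myosin II regulators are not reported here by name. Columns not used numbered 0.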

Additional observations from a re-analysis of the deposited data

How the results depend on the processing

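Of the 14 members that passed, 8 (Des, Limch1, Lmod1, Myl9, Smtn, Smtnl2, Sorbs2 and Tpm1) passed in every one of the 14 alternatives that gave them a value, and Smtnl2 could not be tested where at least 10 counts were required in every library. On leaving out one library, from 8 to 15 members and from 2054 to 4426 of all genes passed, as did from 5 to 10 other myosin II regulators, 1 or 2 SRF cofactors and from 5 to 11 myofibroblast markers. Where a single Confine library remained, it was assumed to vary like the Ctrl libraries. Smtnl2 passed the filter on low counts only through the Confine libraries, so its passes in the alternatives are a description too. With at least 10 counts in every library, 812 genes passed beyond the cutoff of 1.5. With library size alone, 8 other targets of SRF and MRTF passed, and the log2 fold change changed sign for Myh9 (-0.13), Myl6 (-0.17), Tpm2 (-0.18), Cald1 (-0.15), Palld (-0.0768), Flnc (-0.18) and Pdlim7 (-0.13), with the shift of all genes given above. With the identical columns as 2 samples, 18 members, 3 SRF cofactors and 9 of those targets passed, and the sign changed for Tpm2 (-0.0384), Tpm3 (0.0296) and Flnc (-0.0504). Leaving out one library turned the sign of 11 members that did not pass, with ranges of -0.68 to 0.0209 for Actg2, -0.0516 to 0.23 for Myh9, -0.0511 to 0.12 for Myl6, -0.46 to 0.19 for Ppp1r12a, -0.14 to 0.18 for Tpm2, -0.19 to 0.14 for Tpm3, -0.0363 to 0.15 for Cald1, -6.23 to 0.48 for Synpo2, -0.19 to 0.23 for Flnc, -0.0409 to 0.15 for Pdlim7 and -0.16 to 0.51 for Csrp2. From counts without length, the share differences were 0.159 percentage points for Acta1, -3.44 for Myl9, -16.5 for Tpm1 and 0.127 for Tpm2, and leaving out one library gave 0.163 to 0.289 for Acta1. The cause of these moves was not tested.

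Across genes, the difference between replicates 2 and 3 in Ctrl had a correlation of -0.053 with that in Confine. Over genes whose mean log2 CPM exceeded 2 the correlation was -0.108. With the repeated library as number 1, the values were 0.052 and 0.091. Which number the repeated library belongs to is not known, and each correlation compares 1 difference per group. These values therefore cannot show whether samples of the same number were paired. With a replicate block and the repeated library as number 2, 12 members passed (without Cnn3 and Tagln2) and 2528 of all genes, and Actg2 (0.0165) and Tpm3 (0.0127) changed sign. With the repeated library as number 1 in the block, 18 members and 4933 of all genes passed, as did 2 SRF cofactors and 8 of the SRF and MRTF targets, and Pdlim7 (-0.0386) changed sign. Depth limits the members with few counts, Acta1, Synpo2 and the untested genes.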
